A study of Mus musculus with 8 samples.

Results

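Among the regions of open chromatin that ranked high enough to be kept in every library of SN4741 cells at 39°C and in none at 37°C, 236 of 1131 carried a DNA sequence that the tumour suppressor p53 can bind. They are described here. Open chromatin was mapped by ATAC-seq: a transposase inserts adapters where DNA is accessible, and the fragments it frees pile up as peaks. Each of the 8 deposited peak lists was shortened to its 54845 peaks with the highest −log10 q-value, the length of the shortest list, and overlapping peaks were merged into 64768 regions. A region was taken as 39°C-only when all 4 libraries at 39°C and none of the 4 at 37°C called it, and 1131 regions (1.75%) met that rule. Of these, the 236 regions kept had a p53 decamer within 100 bp of the summit, the point of highest pileup, taken as the median over the 4 libraries at 39°C. A p53 decamer was 3 purines, C, a pair of A or T bases, G and 3 pyrimidines with no mismatch. Because the calls at both temperatures chose these regions, their presence at 39°C and their absence at 37°C are the rule and not a result, and no test was made on them.

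SN4741 is a clonal mouse line established from substantia nigra at embryonic day 13.5, labelled as neural precursor cells of WT genotype. All libraries of both groups carry the same transgene, 9.0 kb of the TH promoter driving SV40Tag-tsA58, a temperature-sensitive T antigen for which the study takes 37°C as permissive and 39°C as non-permissive. Cells at 37°C (4 libraries) grew in 10% serum, and cells at 39°C (4 libraries) were held for 48 h in 0.5% serum, so temperature and serum cannot be told apart. The study describes the line as karyotypically unstable and mostly triploid, and nothing in the labels says that the 4 libraries of a group came from separate cultures, so p-values measure the spread between these libraries only. Each library came from 50000 cells. Depth was 49.8 to 169 M fragments (M for mega) at 37°C, where replicates 1 and 4 held 169 and 158 M, and 52.7 to 71.2 M at 39°C. Promoter peaks of 27 marker genes were looked up. In all 8 shortened lists 4 of 6 neural precursor and 5 of 5 fibroblast and mesenchyme genes had one. So did 4 of 6 dopaminergic, 3 of 4 neuronal, 0 of 3 endothelial and 0 of 3 microglial genes. Dcx, a marker of young neurons, had none in any list, and Slc6a3, the dopamine transporter, none in the shortened lists. Of the endothelial and microglial genes, Pecam1 had one in 4 libraries at 37°C and 3 at 39°C, P2ry12 in 3 and 3, and Csf1r in 4 and 2. Cdh5, Kdr and Cx3cr1 had none in the shortened lists. In all 8 lists a peak was found for 59.3% of the 27 and 58.8% of all coding genes, so these peaks do not identify the cell type.

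p53 is a transcription factor that binds DNA as a tetramer, and its full site is a pair of decamers that lie side by side or a few bases apart. It is stabilised by DNA damage and other stress and switches on genes for growth arrest, DNA repair and cell death, among them Mdm2, whose product marks p53 itself for degradation. Large T antigen of SV40 binds p53 and blocks its activity, and the related factors p63 and p73 recognise the same decamers. ATAC-seq shows that DNA is open, not which protein sits on it, and p53 binding was not measured in these libraries.

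The sequences below show what the regions have in common and how they differ. Each is 60 bases of mm10, plus strand, with every whole decamer in capitals. The first set are regions with paired decamers, that is 2 whole decamers with at most 13 bases between them, which is the form nearest to a full p53 site.

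Exon of Ifit2, chr19:34574759-34574818: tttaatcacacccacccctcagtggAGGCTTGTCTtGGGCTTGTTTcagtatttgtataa
Intron of Evc2, chr5:37365954-37366013: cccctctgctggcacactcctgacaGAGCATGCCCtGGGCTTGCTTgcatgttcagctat
Intron of Egfr, chr11:16841409-16841468: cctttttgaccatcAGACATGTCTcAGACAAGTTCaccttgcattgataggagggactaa
Between genes, chr4:79277723-79277782: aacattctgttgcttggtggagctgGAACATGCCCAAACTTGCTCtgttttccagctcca
Between genes, chr5:90383216-90383275: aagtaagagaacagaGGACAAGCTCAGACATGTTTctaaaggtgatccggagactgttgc
Between genes, chr16:66517022-66517081: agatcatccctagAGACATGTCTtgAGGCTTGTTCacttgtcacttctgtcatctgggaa
Intron of Gli3, chr13:15599698-15599757: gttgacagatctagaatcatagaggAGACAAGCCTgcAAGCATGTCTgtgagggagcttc

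The decamers touched in the regions of chromosomes 4 and 5 that lie between genes, had 1 base between them in Ifit2, Evc2 and Egfr, and 2 bases in the region of chromosome 16 and in Gli3. The second set are regions with 1 decamer: the 2 highest-ranked regions, the highest-ranked region absent from all 37°C lists, and the region in Fancc.

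Upstream of Cdh13, chr8:118249602-118249661: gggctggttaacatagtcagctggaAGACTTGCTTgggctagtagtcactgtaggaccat
Intron of Ash2l, chr8:25819498-25819557: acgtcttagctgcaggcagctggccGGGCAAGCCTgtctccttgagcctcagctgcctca
Near Gjc3, chr5:137947405-137947464: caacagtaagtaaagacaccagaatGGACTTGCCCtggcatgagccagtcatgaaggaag
Intron of Fancc, chr13:63350486-63350545: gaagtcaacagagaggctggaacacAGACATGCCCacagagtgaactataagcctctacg

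The third set are tandem repeats in which the decamer recurs as part of a repeated unit, with 8 copies in the window of the first region and 9 in that of the second.

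Intron of Gm28447, chr10:61589171-61589230: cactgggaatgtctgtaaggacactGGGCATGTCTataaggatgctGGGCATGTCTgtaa
Between genes, chr17:62307533-62307592: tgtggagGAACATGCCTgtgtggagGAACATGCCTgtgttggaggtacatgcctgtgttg

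The decamer was common in 39°C-only regions. It lay in 236 of 1131 (20.9%, Wilson 95% interval 18.6 to 23.3), against 82 of 1576 regions called in all 4 libraries at 37°C and none at 39°C (5.20%, 4.21 to 6.41) and 2697 of 41180 regions called in all 8 libraries (6.55%, 6.31 to 6.79). Of all 13171266 consecutive 201-bp windows of the genome, 6.06% held a decamer, so the regions called in all 8 libraries were close to the genome as a whole. Read from the decamer's side, 236 of the 4670 merged regions that held one were 39°C-only (5.05%, against 1.75% of all regions). These intervals cover counting error only.

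The share changed with the number of libraries that called a region. Among regions called in all 4 libraries at 39°C, it was 20.9% where no 37°C library called them, 14.4% with 1, 11.4% with 2, 10.4% with 3 and 6.55% with 4. Among regions that no 37°C library called, it was 7.76% with 1 library at 39°C, 12.9% with 2, 15.0% with 3 and 20.9% with 4. No such gradient was seen among regions called in all 4 libraries at 37°C, whose shares lay between 5.20% and 7.61% whatever the number at 39°C.

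**Figure D1:**
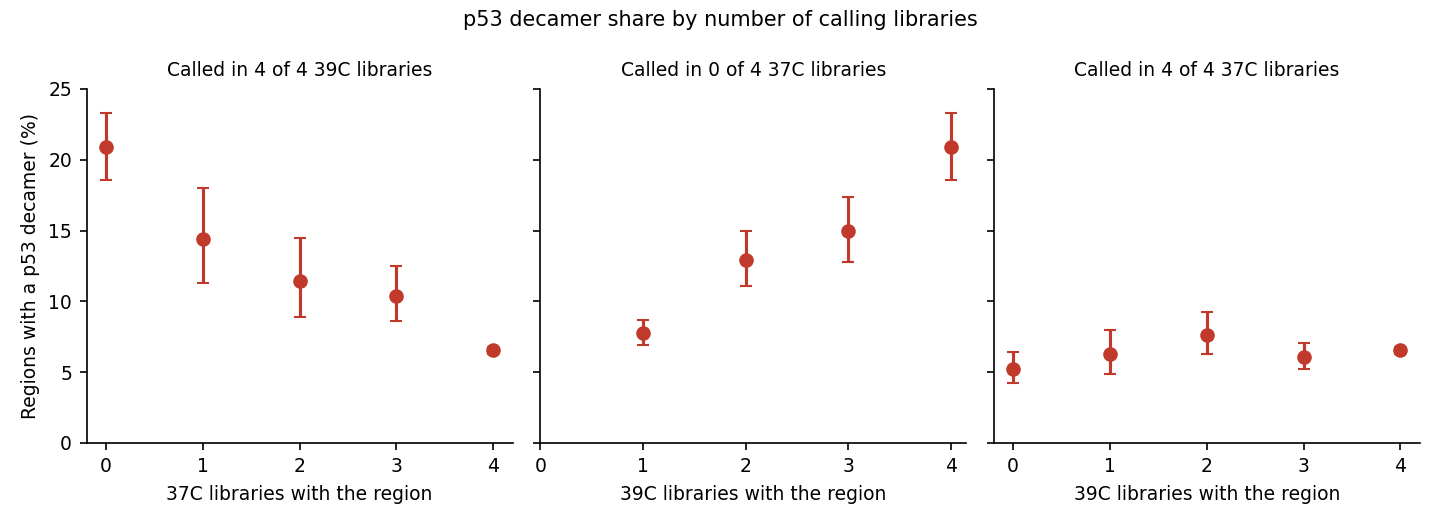
Percent of merged regions with a p53 decamer within 100 bp of the summit, by the number of libraries that called them; points are shares and bars Wilson 95% intervals. The share falls from 20.9% to 6.55% as more 37°C libraries call a region open in all 39°C libraries (left), rises from 7.76% to 20.9% with the number of 39°C libraries (middle), and stays between 5.20% and 7.61% among regions of all 37°C libraries (right).

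The 236 regions were weak peaks. Their median rank lay 77.1 to 79.3% of the way down the shortened list of each 39°C library, where 39°C-only regions without a decamer lay at 79.5 to 83.0% and regions called in all 8 at 38.7 to 39.4%. Their median fold enrichment over the genome-wide background was 5.81, 5.46, 6.14 and 3.88 in replicates 1 to 4 at 39°C, against 18.9, 17.5, 20.3 and 11.2 for regions called in all 8. Replicate 4, the shallowest library at 39°C, gave the lowest folds for every set of regions, and its list was used whole, down to a −log10 q of 1.61, while the other lists ended between 9.88 and 33.1. The regions had a median width of 854 bp (343 to 3329).

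In the full 37°C lists, past the rank limit, 149 of the 236 regions overlapped a peak of 37°C replicate 1, 115 of replicate 2, 100 of replicate 3 and 182 of replicate 4. The counts were highest in the 2 deep libraries. The peaks had median folds of 2.94, 3.25, 3.28 and 3.11 in replicates 1 to 4 and none above 4.18. In no full 37°C list were 46 regions (19.5%), beside 140 of the 895 39°C-only regions without a decamer (15.6%), and in all 4 were 71 (30.1%), beside 282 (31.5%). The limit on rank set which were kept. The 3 regions just inside had ranks of 54794, 54553 and 54539 in the 39°C library that placed them last, and the 3 just outside 55021, 55025 and 55219. The outermost decamers kept were 95.5, 95.5 and 93.5 bp from the summit, and the 3 nearest left out were each at 96.5 bp.

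**Figure D2:**
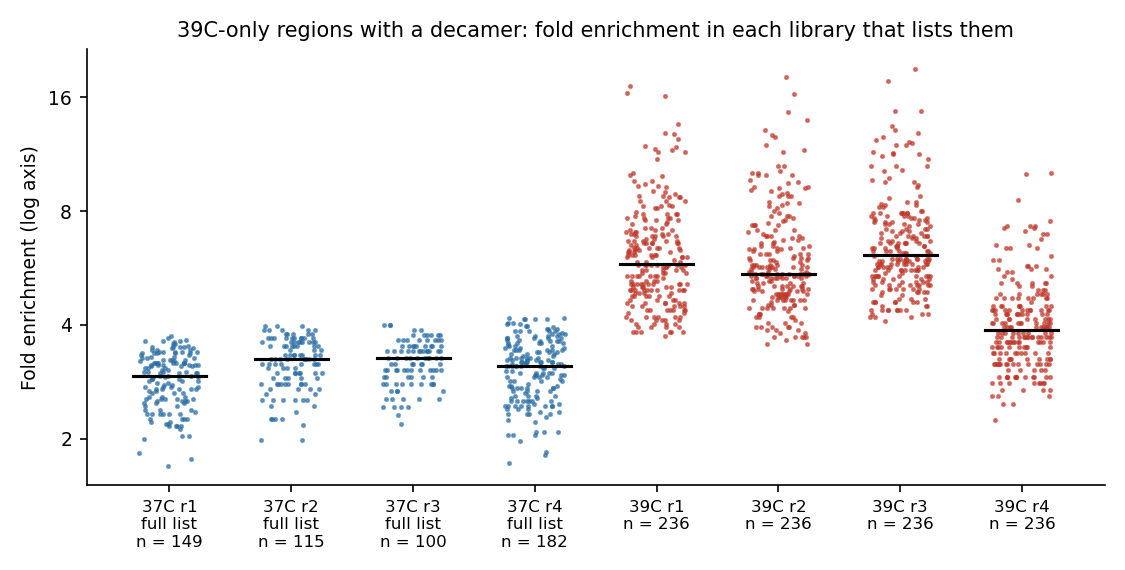
Fold enrichment (log axis) of the 39°C-only regions with a decamer in each library that lists them; points are regions, black lines medians, and n is the number listed. At 37°C, where only the full lists hold them, medians lie between 2.94 and 3.28, and at 39°C between 3.88 and 6.14, lowest in replicate 4; the rank rule chose the regions, and folds are not corrected for depth.

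The 10 regions with the best mean rank at 39°C were chosen by that value and are described, not tested. The first lay 34083 bp from the start of Cdh13, which encodes T-cadherin, a cadherin anchored to the membrane by a lipid. Its folds were 16.1, 18.1, 17.7 and 10.0 at 39°C, and 2.49, 2.26 and 3.11 in the full lists of 37°C replicates 1, 2 and 4, with no peak in replicate 3. The second lay in an intron of Ash2l, a subunit of the complexes that methylate histone H3 at lysine 4, with folds of 17.1, 16.3, 19.0 and 8.55 at 39°C. The decamer's centre was 18.5 bp from the summit in the first and 6.50 bp in the second. The third, with paired decamers, lay in an exon of Ifit2, one of the interferon-induced antiviral genes, 8751 bp from the nearest start site, that of its neighbour Ifit3. Its folds at 39°C were 16.4, 13.9, 12.0 and 10.1, and all 4 full 37°C lists held it at 3.53, 3.79, 3.16 and 3.59.

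The other 7 were introns of Pus10 (a pseudouridine synthase), Filip1 (a filamin-binding protein) and Cers6 (a ceramide synthase), and regions between genes nearest to 1700010K23Rik, Gjc3 (a connexin of myelinating glia), Gm14515 and Akirin1. The region nearest 1700010K23Rik is the paired one of chromosome 16 shown above. Its folds were 11.9, 13.1, 14.7 and 7.31 at 39°C, and 2 of the 4 full 37°C lists held it, at 3.70 and 3.62. The region near Gjc3 had folds of 12.8, 11.6, 12.9 and 6.97 at 39°C and was in none of the full 37°C lists. Those nearest Akirin1 and Gm14515 were 2165 and 35581 bp from a start site. Most of the highest regions were thus listed in some 37°C library too, and of the 10 only the region near Gjc3 was in no full 37°C list.

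Of the regions in no full 37°C list, the 5 best ranked were the one near Gjc3, one 146768 bp from Kcna4 (a voltage-gated potassium channel), one in an intron of Hsd17b11 (a steroid dehydrogenase), one in the noncoding gene AC158982.1 and one 315985 bp from Gm49408. The Kcna4 region had folds of 11.7, 12.0, 11.3 and 6.52 at 39°C. In the Hsd17b11 region they were 11.8, 8.95, 11.2 and 7.20, and the decamer there had a partner 1 base away that missed the pattern at 1 base.

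The rule did not ask for paired decamers, and most of the regions had none. A pair with at most 13 bases between was present in 13 of 236 regions (5.51%, Wilson 95% interval 3.25 to 9.20), in 41 of 2697 regions with a decamer called in all 8 libraries (1.52%, 1.12 to 2.06), and in 0 of 82 such regions called only at 37°C, where a count of 0 allows up to 4.48%, an interval that overlaps that of the 236. In 10 of the 13 the window held exactly 2 decamers. The other 3 held 8, 9 and 13 copies in tandem repeats, the last of them 57430 bp from Zeb1, a repressor that drives loss of epithelial character. Windows with more than 1 decamer made up 33 of the 236 regions, 27 with 2 and 6 with 3 or more.

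Partners were most frequent close to the decamer. Allowing 1 mismatch in the partner, 24 regions (10.2%) had a partner that touched the decamer and 15 (6.36%) one a single base away. At spacings of 2 to 20 bases the share had a median of 0.847%, with the highest, 3.81% (9 regions), at 20 bases, beyond the 13-base limit for a pair, against 31 of 2697 regions called in all 8 and 4 of 82 (4.88%) 37°C-only regions. In regions called in all 8 libraries the touching and 1-base shares were 2.71% and 1.74%, over a median of 1.08%. With 2 mismatches allowed, 85 of the 236 regions (36.0%, 30.2 to 42.3) had a partner at 0 or 1 base, against 433 of 2697 (16.1%, 14.7 to 17.5) called in all 8 and 9 of 82 (11.0%, 5.88 to 19.6) called only at 37°C. The Evc2, Egfr and Ifit2 sequences above show the 1-base spacing letter by letter, while most regions had no partner this close.

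**Figure D3:**
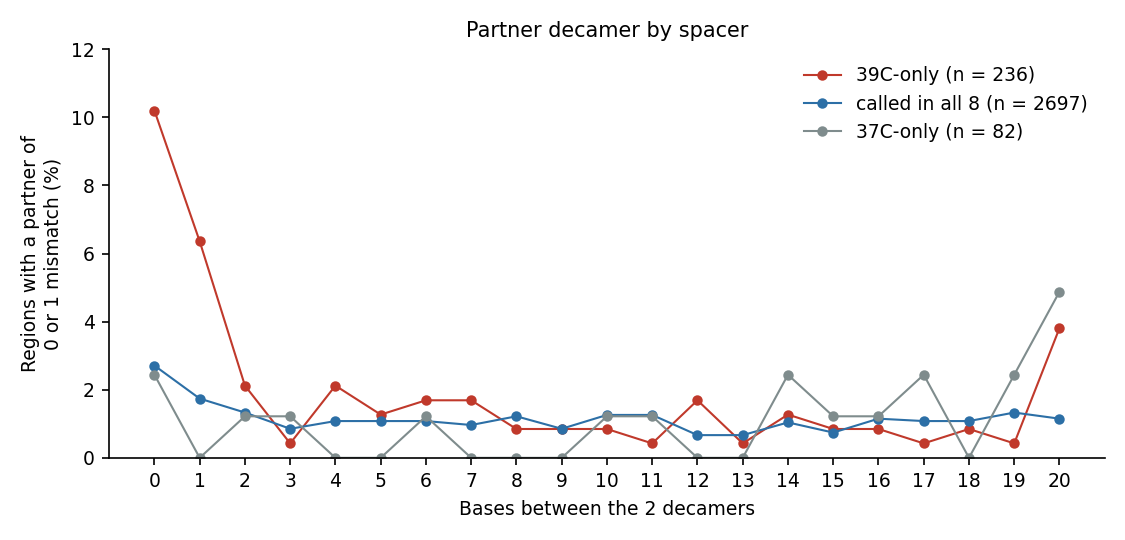
Percent of regions with a decamer that have a partner decamer of 0 or 1 mismatch, by the number of bases between them, for 39°C-only regions, regions called in all 8 libraries and 37°C-only regions. The 39°C-only line stands at 10.2% and 6.36% at spacers of 0 and 1 and otherwise stays under 4%.

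The core of the decamer, the 4 central bases, was CATG in 96 of 236 regions (40.7%, 34.6 to 47.0), against 27.7% (26.0 to 29.4) in regions called in all 8 and 29.3% (20.5 to 39.9) in 37°C-only regions. The palindrome CTAG was in 7.63% (4.88 to 11.7), against 15.6% (420 of 2697, lower bound 14.3) and 12.2% (6.76 to 21.0). For both cores the interval of the 236 overlapped that of 37°C-only regions but not that of regions called in all 8, and no test was made. CAAG or CTTG made up the remaining 51.7%, 56.7% and 58.5%. The CATG core is seen above in Evc2, Fancc and both repeats, while the highest-ranked regions near Cdh13 and Ash2l carried CTTG and CAAG.

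The rule set the decamer within 100 bp of the summit, so only a contrast with other sets held to the same 100 bp can be read. The sets differed in other ways. Summits were medians over 4 libraries for the 39°C-only and 37°C-only regions and over 8 for regions called in all 8. With a decamer, the latter were also wider, with a median of 1691 bp against 854 bp for the 236. The contrast was not corrected for either difference. The centre of the decamer was a median of 36.5 bp from the summit, against 46.5 bp in regions called in all 8 and 42.0 bp in 37°C-only regions. In 76 regions (32.2%) it was within 20 bp, against 23.7% of those called in all 8 and 25.6% of 37°C-only regions, and the counts fell outward through 52, 49, 36 and 23 in the next 20-bp steps. Measured from each library's own summit, the median was 42.5, 41.5, 41.0 and 44.0 bp in replicates 1 to 4 at 39°C, and 25.4, 25.4, 28.4 and 24.6% of decamers were within 20 bp. The share within 20 bp was thus lower from each single summit than from the median summit, the only one used for the other sets. The 4 summits of a region spanned a median of 71.0 bp, which limits how finely a distance can be read.

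**Figure D4:**
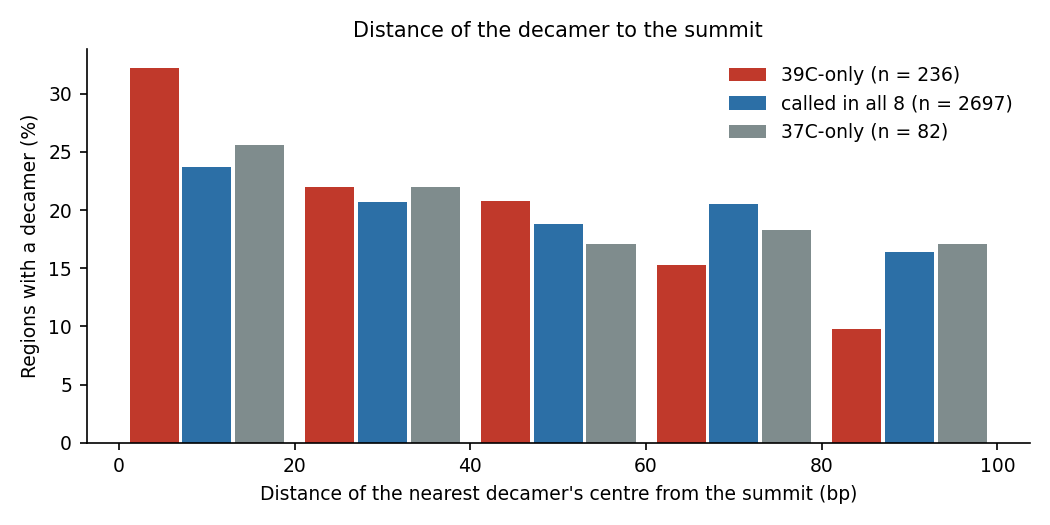
Distance in bp from the summit to the centre of the nearest decamer, in steps of 20 bp, as percent of regions with a decamer in each set. The 39°C-only bars fall from 32.2% within 20 bp to 9.75% beyond 80 bp, and those of regions called in all 8 from 23.7% to 16.4%.

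The regions lay away from promoters. Of the 236, 114 (48.3%) had their summit in an intron, 111 (47.0%) between genes and 11 in an exon. Only 16 (6.78%) were within 1 kb of a start site, against 5.92% of 39°C-only regions without a decamer and 32.8% of regions called in all 8, and the median distance was 13269 bp (18 to 364452). Median GC content of the 201-bp window was 46.8%, between the 45.3% of 39°C-only regions without a decamer and the 52.2% of regions called in all 8. Summits between genes made up 47.0% of the 236 and 41.9% of 39°C-only regions without a decamer, and summits over 100 kb from a start site 7.20% and 4.69%. These differences were not tested. The decamer itself lay in soft-masked repeat sequence in 16 regions (6.78%), against 4.60% of decamers in regions called in all 8. The regions were spread over 20 chromosomes, with 20 on chromosome 6 (8.47%, against 4.25% of 39°C-only regions without a decamer and 4.81% of all merged regions) and 7 on chromosome 7 (2.97% against 3.24% and 5.43%), and copy number was not measured here.

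Motifs of other factors were searched in the same windows, on both strands and with no mismatch. AP-1 (TGANTCA), the Fos and Jun dimer, was present in 31.8% of the 236 regions, in 35.9% of 39°C-only regions without a decamer and in 31.5% of all merged regions. RUNX (TGTGGT) was present in 30.1%, 32.5% and 24.8%. The decamer thus stood beside AP-1 and RUNX motifs about as often as those motifs stood in other 39°C-only regions. TEAD (GGAATG), the partner of YAP, was present in 12.3%, 16.8% and 17.3%, and the bHLH E-box (CAGCTG) in 11.0%, 17.2% and 14.8%. Forkhead (TNTTTAC) was present in 12.7%, 11.6% and 7.94%, but in 10 of its 30 regions the only match overlapped the decamer. The promoter motifs were rare: SP/KLF (GGGCGGG) was found in 3 regions (1.27%, against 1.12% of 39°C-only regions without a decamer and 10.8% of all) and ETS (CCGGAA) in none (against 1.01% and 6.23%). The heat shock factor motif was in none of the 236, which allows up to 1.60%, in 0.447% of 39°C-only regions without a decamer and in 0.320% of all merged regions. In the same order, NFI (TTGGCA) was in 12.7%, in 152 of 895 regions and in 14.3%, and the GATA factor motif (AGATAA) in 6.36%, 10.3% and 6.52%. SOX (CCATTGT) was in 2.54%, 4.69% and 2.90%, and TCF/LEF (CTTTGAT) in 4.24%, 5.81% and 2.62%. NFY (AGCCAAT) was in 2.54%, 1.90% and 3.62%. The Myc E-box (CACGTG) was in 2.12%, 2.01% and 3.66%. CREB (TGACGT) was in 0.424%, 1.68% and 3.62%, and STAT in 5.93%, 8.49% and 6.27%. In 1 region each, the only SOX, GATA factor or STAT match overlapped the decamer.

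Whether decamers were also more frequent at 39°C beyond the chosen regions was tested on peaks that the rule had ranked and called but not kept. In each library the peaks outside all 39°C-only and 37°C-only regions were taken, 53239 to 53713 per library. A decamer was present in 6.55, 6.63, 6.62 and 6.61% of them in replicates 1 to 4 at 37°C and in 7.07, 7.13, 7.19 and 7.04% at 39°C. All 4 values at 39°C lay above all 4 at 37°C. The means were 6.60% ± 0.0368 and 7.11% ± 0.0664 (SD, n = 4 each), a difference of 0.503 percentage points (two-sided exact permutation test, p = 0.0286, which is the lowest value that 70 assignments allow, and 0.0286 adjusted over the 3 tests made). These peaks still include regions that 1 to 3 libraries of 1 temperature called, by the same calls that the rule used. Regions of 3 libraries at 39°C and none at 37°C held a decamer in 15.0%, and those of the reverse pattern in 5.78%. The difference is therefore not independent of the gradient described above, and cannot be read as a further gain of accessibility.

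The regions called in all 8 libraries are free of that gradient. Each was given its percentile by −log10 q among these 41180 regions within a library, and the 2697 with a decamer had a median percentile of 41.5, 41.8, 41.6 and 41.9 at 37°C and of 45.0, 45.2, 44.5 and 44.7 at 39°C. Again the groups did not overlap. Means were 41.7 ± 0.215 and 44.8 ± 0.327 (SD, n = 4 each), a shift of 3.14 percentiles (exact permutation test, p = 0.0286, adjusted 0.0286). Percentiles are relative within these regions, so those without a decamer had to move the other way (−0.216). The shift was 1.99 with a window of 250 bp, 2.58 with 50% coverage, 2.97 with peaks of −log10 q at least 5, 3.20 with all peaks and 3.47 with a window of 50 bp. In settings chosen after seeing the data, it was 2.43 as a mean over regions and 4.12 for regions more than 1 kb from a start site. It was 3.14 when percentiles were taken within 5 classes of GC content, also chosen later. With only the 2 shallow libraries at 37°C it was 3.18, where the test cannot reach 0.05 (exact permutation test, p = 0.0667, the smallest possible).

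The 41 shared regions with paired decamers moved in the same direction. Their median percentile was 33.1, 36.2, 35.9 and 37.4 at 37°C and 40.4, 38.7, 40.3 and 40.2 at 39°C, again with no overlap. The means were 35.6 ± 1.80 and 39.9 ± 0.820 (SD, n = 4 each), a shift of 4.23 (exact permutation test, p = 0.0286, adjusted 0.0286). A median over 41 regions moves in steps, and this size depended on the setting: it was 16.9 with all peaks, 14.4 with peaks of −log10 q at least 5, 12.6 with a window of 50 bp, 13.4 with 50% coverage and, chosen after seeing the data, 7.13 for regions more than 1 kb from a start site and 9.32 as a mean over regions. Without 39°C replicate 4 it was 7.11, without 37°C replicate 3 6.86 and without 37°C replicate 4 6.42. Without 39°C replicate 1, 3 or 4 the exact permutation test gave p = 0.0571. Region by region, the mean percentile was higher at 39°C in 31 of the 41, the median difference over all 41 was 8.25, and in 24 (58.5%) all 4 values at 39°C exceeded all 4 at 37°C, while in 3 (7.32%) all lay below. Among all 41180 shared regions these shares were 18.02% and 19.71%, and among the 2697 with a decamer 29.1% and 15.5%. The largest rise, picked after its value was seen, was on chromosome 13, 22037 bp from the start of Dusp22, a dual-specificity phosphatase, from a mean percentile of 6.05 to 55.2.

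**Figure D5:**
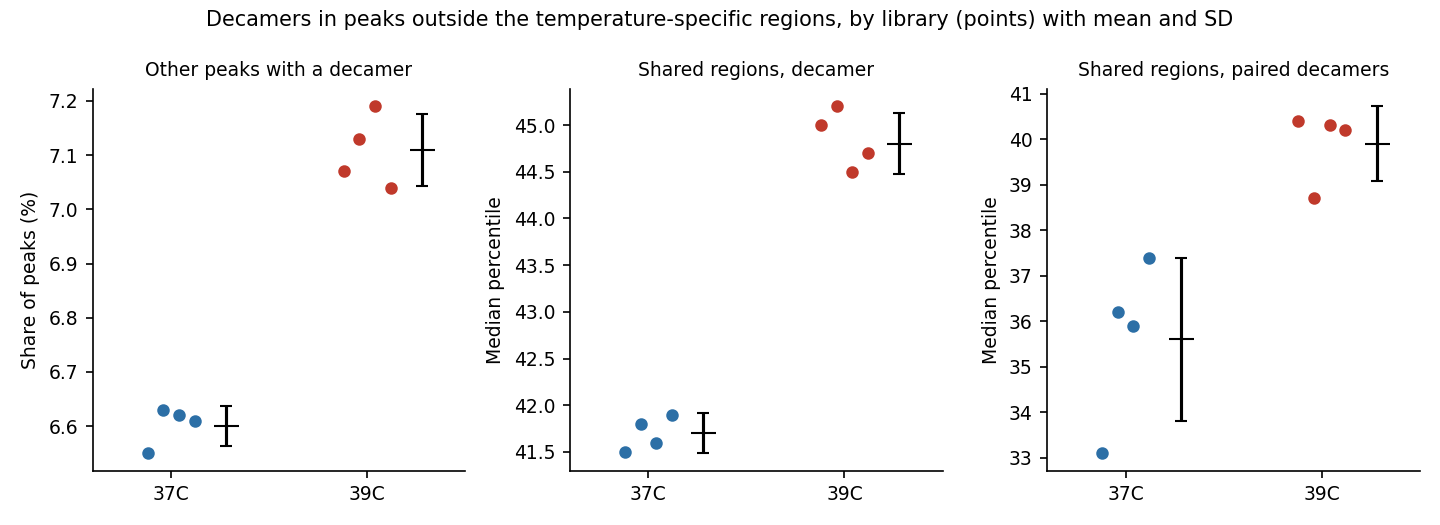
Left, percent of peaks outside all temperature-restricted regions with a decamer; middle and right, median percentile by −log10 q of regions called in all 8 libraries with a decamer (n = 2697) and with paired decamers (n = 41). Points are libraries, bars mean and SD (n = 4), axes do not start at 0. In all 3 panels every 39°C library lies above every 37°C library, and the left panel still carries the gradient by number of calling libraries.

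Motifs of 16 other factors were put through the same measures. In the ranks of shared regions, 7 of them moved upward without overlap between temperatures, namely SOX by 2.68 percentiles, TCF/LEF by 2.11, STAT by 1.67, RUNX by 1.16, Myc E-box by 1.12, Forkhead by 1.11 and NFI by 0.673, and TEAD by −1.56. The heat shock factor motif, in 120 regions, moved by 3.00 with overlap (exact permutation test, p = 0.0571). At the main setting the shifts of 3.14 and 4.23 for the decamer and its pair were the highest of this family but not the only ones. The decamer's shift was 2.43 as a mean over regions and 1.99 with a window of 250 bp, settings not run for the other motifs. Adjusted over 19 measures the smallest exact permutation p became 0.0494. These 19 include the regions without a decamer, which had to move against those with one. A value this near 0.05 was therefore not read as passing it. In the share of peaks outside restricted regions, only the decamer, the pair (0.0930% to 0.123%, a ratio of 1.32), TCF/LEF (2.41% to 2.58%) and TEAD (17.4% to 16.6%) did not overlap between temperatures, and adjusted over these 18 measures the smallest exact permutation p was 0.129, past the threshold.

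Promoter peaks were looked up for a chosen list of 45 genes of the p53 pathway. Of these, 42 (93.3%) had a promoter peak, within 1 kb of a start site, in all 8 shortened lists, among them Trp53, which encodes p53, against 58.8% of all coding genes. Of its relatives, Trp63 had none in any library, and Trp73 had one in 3 libraries at 37°C and 0 at 39°C in the shortened lists, but in 4 and 3 in the full lists. Sfn, a 14-3-3 protein that holds cells before mitosis, had one in 2 libraries at 37°C and 0 at 39°C, in the shortened and the full lists alike. Those 2 were replicates 1 and 4, the deep libraries, so temperature and depth cannot be told apart here. One of the 236 regions lay within 25 kb of a start site of 1 of the 45 genes (2.22%), Fancc, which acts in the repair of crosslinked DNA, against 151 of all 21911 coding genes (0.689%). The folds of the Fancc region were low, 3.84, 4.43, 4.99 and 3.15 at 39°C, and no full 37°C list held it. Its decamer lay in soft-masked repeat sequence, as in only 16 of the 236 regions. Within 100 kb there were 3 genes (6.67%), with Xpc, which detects damaged DNA, at 63565 bp and Pmaip1, a killer protein of the BCL2 family also called Noxa, at 31137 bp, against 2.46% of all coding genes. These shares rest on 1 and 3 genes.

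Of 18 merged regions with a decamer within 25 kb of the listed genes, 14 (77.8%), near 13 genes, were called in all 8 libraries, beside 57.8% of the 4670 merged regions with a decamer. In 8 of the 14 (57.1%) all 4 percentiles at 39°C lay above all 4 at 37°C, and in 2 (14.3%) below, beside 29.1% and 15.5% of the 2697 shared regions with a decamer and 18.02% and 19.71% of all shared regions. These are counts over a short list and were not tested as a set.

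Among the feedback genes, Mdm2, which encodes the ubiquitin ligase of p53, had a region 7014 bp from a start site with percentiles of 80.9, 78.1, 78.7 and 80.0 at 37°C and 84.3, 84.4, 86.0 and 83.8 at 39°C. The region near Mdm4, its partner that blocks p53, stood at 36.5, 40.3, 36.3 and 40.5 against 58.6, 59.7, 57.9 and 55.6. Both had a partner touching the decamer with 1 mismatch, and in both the groups did not overlap. At Ppm1d, a phosphatase that switches the response off, the groups overlapped, with means of 93.4 and 94.1. Among the arrest genes, a region 11906 bp from a start site of Cdkn1a, the kinase inhibitor p21, stood at 49.7, 54.8, 58.9 and 49.6 at 37°C and at 61.3, 62.2, 59.1 and 59.6 at 39°C. Its groups did not overlap, with 58.9 and 59.1 as the nearest values, while those of the regions near Btg2 and Sfn did overlap.

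Among the death genes, Trp53inp1, a stress protein that helps p53 trigger cell death, had the widest change. A region 11839 bp from a start site stood at 9.64, 17.5, 7.58 and 8.11 at 37°C and at 46.8, 45.7, 39.1 and 45.1 at 39°C, and its promoter region moved from a mean of 89.5 to 95.7, both with no overlap. The regions at Aen, an exonuclease, and Ei24 also lay higher at 39°C, by 3.32 and 4.18 percentiles and without overlap. The region near Bbc3, the killer protein PUMA, lay lower, with means of 53.4 at 37°C and 47.5 at 39°C and no overlap. Of the stress genes, the region near Ddit4, an inhibitor of mTOR, lay higher by 3.56 with no overlap, and that near Sesn2 overlapped between temperatures. The region near Lif, a secreted cytokine, lay lower, at 62.6, 61.5, 66.4 and 63.3 against 39.4, 35.2, 40.3 and 34.1. The direction thus differed from gene to gene. For each of the 10 regions without overlap the exact permutation test gave p = 0.0286, the lowest it can give, and 0.0757 when adjusted over all 41180 shared regions, so no region passed the threshold alone.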

How the data were processed

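The data were 8 ATAC-seq peak lists of SN4741 cells, 4 at each temperature, grouped by sample title. Per the study's methods and the submitters' processing notes, the authors aligned reads to mm10 with Bowtie2 2.4.1, removed duplicates with SAMtools 1.15.1 and Picard 2.26.11, called peaks per library with MACS3 3.0.0a7 (q-value 0.05, no control, no local background) and filtered peaks over blacklisted regions with bedtools 2.30.0. Peak numbers run without a gap in all 8 deposited lists, so the lists may precede that filter. The deposited lists give each peak's pileup signal, a number of fragments that was not corrected for depth. They also give fold enrichment, a ratio to 1 genome-wide background per library, and −log10 p-values and q-values, made by the authors. With no local background these columns order peaks alike within a list, and tests between libraries used only calls and ranks. Fold values are set side by side only as descriptions, and are not corrected for depth.

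Peaks were merged at 1 bp overlap after each list was shortened to 54845 peaks, ties kept in file order. Sequences came from GRCm38.p6 (the mm10 assembly) and genes from GENCODE M21, with Python 3.11.15, numpy 2.4.6, pandas 2.3.3 and scipy 1.17.1. Library values were tested by exact permutation of the difference in means, two-sided, over 70 assignments, with Benjamini-Hochberg adjustment. Intervals are Wilson 95% and cover counting error only. The regions, motifs and gene lists were chosen with earlier results of these data known. Regions named in the text were the 10 with the best mean rank at 39°C, the 10 best with paired decamers, those within 25 kb of a p53 pathway gene, the 5 best in no full 37°C list, and the 3 on each side of each limit. Those near Xpc, Pmaip1 and Dusp22 fall outside that rule and were chosen after their values were seen. Of the 10 best with paired decamers, the text gives 7 with sequences and the 3 tandem repeats. Scripts were tested on simulated data. Depth is the fragments kept by the caller, and reads in regions were not used here.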

Additional observations from a re-analysis of the deposited data

Results flagged for a closer look

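One value stood apart from its group by Dixon's test at the 95% level for 4 samples. The median percentile of the 41 shared regions with paired decamers was 38.7 in 39°C replicate 2, against 40.2 in the nearest of the other libraries at 39°C, and this gap was 0.882 of the range of the group, above the critical value. It remained above the 4 values at 37°C. With 14 groups of 4 examined, chance alone gives about 0.700 such values.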

How the results depend on the processing

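The count of 236 regions became 62 with all peaks (23.3% of 266), where only 46 of the 236 were found again. It was 144 with a window of 50 bp and 393 with one of 250 bp. It was 422 with the 2 shallow 37°C libraries and no 39°C replicate 4, a setting chosen after seeing the data, and 241 to 330 without single libraries. With peaks of −log10 q at least 5 it was 232, but 155 of the 236 were found again, and 169 with 50% of a region covered (162 found again). Ranking by fold enrichment could not change the count of 236, since fold orders peaks alike within a list. Nor could leaving out chromosome Y, where no 39°C-only region lay. Keeping all or the last tied peaks, also added later, gave 236 and 239. The share with a decamer, 20.9%, moved to 12.7% and 34.7% with the windows of 50 and 250 bp, to 18.1% with the shallow 37°C libraries and to 16.7% when 39°C replicate 4 was also left out. The median distance to the summit, 36.5 bp, became 18.5 and 68.5 bp with those windows, 40.5 bp with all peaks, 38.5 bp with 50% coverage, 40.5 bp with the 5 shallow libraries other than 39°C replicate 4, and 34.0 to 39.5 bp without single libraries. The share with paired decamers and the share with a touching partner stayed within their intervals under every setting.

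No test changed direction. With the shallow 37°C libraries alone the 3 differences were 0.456, 3.18 and 4.05 (exact permutation p = 0.0667, the smallest possible), and without 39°C replicate 4 as well 0.372, 3.11 and 6.24 (exact permutation p = 0.100, the smallest possible). Without single libraries the third ranged from 4.33 to 7.11, and the first 2 kept their calls. Same-numbered libraries deviated together by correlations of −0.142 to 0.159, and other pairs by −0.211 to 0.203. These values show no pairing by number, but the labels do not say whether same-numbered libraries shared a culture or batch. With a replicate block the differences stay 0.503, 3.14 and 4.23, and the exact paired permutation p is 0.125, the smallest that 4 pairs allow. Depth limits the comparison: 2 of the 4 libraries at 37°C held 158 and 169 M fragments, and the deepest at 39°C 71.2 M.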

Other observations

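The 82 regions called only at 37°C that held a decamer held a TEAD motif in 31.7% (Wilson 95% interval 22.6 to 42.4), against 12.3% (8.69 to 17.1) of the 236 regions called only at 39°C. Over all 1576 regions called only at 37°C the share was 26.1% (24.0 to 28.4). AP-1 was present in 29.3% of the 82 and 31.8% of the 236, and RUNX in 32.9% and 30.1%.

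Next to the limit, 136 regions with a decamer were called in 3 of 4 libraries at 39°C and in none at 37°C. In 40 of them the full list of the missing library held the region past the rank limit. In 4 places neighbouring regions of the 236 lay within 50 kb of each other, the closest 8613 bp apart.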
